A study of Mus musculus with 2 samples.

Results

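The genes described here are 9 ATP-binding cassette (ABC) transporters tied to dye and lipid efflux in blood stem cells, chosen by name from the 43346 mouse genes in the tables. They are the 3 pumps of the side population, Abcg2, Abcb1a and Abcb1b, and 6 other transporters, Abcc1, Abcc4, Abcc5, Abca1, Abcg1 and Abcb10. All 9 symbols matched a single Ensembl identifier. Total RNA was measured in 2 libraries of 1 group, each from a pool of 100 cells labelled as hematopoietic stem cells, from adult male C57BL/6J mice at 5 to 6 weeks of age with no treatment or altered allele named. The labels call the libraries biological replicates 1 and 2 and give both the same donor identifier, so part of the spread may be technical. How the cells were isolated is not analysed here, and a pool cannot assign a transcript to a cell.

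ABC transporters use ATP to move substrates across a membrane. The side population is the small fraction of marrow cells that stays dim with the Hoechst dye because ABC pumps expel it, and it is known to be rich in stem cells. Abcg2 works as a dimer and is the main Hoechst pump of mouse marrow, while Abcb1a and Abcb1b are the mouse copies of the gene for P-glycoprotein, which expels rhodamine and many drugs. Abcc1, Abcc4 and Abcc5 export organic anions such as glutathione conjugates and cyclic nucleotides, Abca1 and Abcg1 pass cholesterol to lipoproteins, and Abcb10 sits in the inner mitochondrial membrane and is known from heme synthesis in red cell precursors.

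Abcg2 lies on chromosome 6 (58584523 to 58695676, plus strand, GRCm38), and its annotated transcripts begin at several places. The 250 bases before each of the 3 starts that RefSeq gives on GRCm38.p6 are shown because reads fell unequally on the transcripts that begin there. Capitals mark the GC box GGGCGG on either strand. The other motifs searched on both strands, namely the CCAAT box, the TATA box TATAAA, the GATA factor motif AGATAA, the hypoxia core ACGTG, the antioxidant response motif TGACNNNGC and the E-box CACGTG (which contains the hypoxia core), had no match in these 3 windows.

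Abcg2 start 1, chr6:58584283-58584532, plus strand: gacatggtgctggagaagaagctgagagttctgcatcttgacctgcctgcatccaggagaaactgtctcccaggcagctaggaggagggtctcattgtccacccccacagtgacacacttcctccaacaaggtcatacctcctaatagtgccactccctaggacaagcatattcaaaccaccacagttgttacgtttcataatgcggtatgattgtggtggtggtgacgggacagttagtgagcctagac

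Abcg2 start 2, chr6:58596422-58596671, plus strand: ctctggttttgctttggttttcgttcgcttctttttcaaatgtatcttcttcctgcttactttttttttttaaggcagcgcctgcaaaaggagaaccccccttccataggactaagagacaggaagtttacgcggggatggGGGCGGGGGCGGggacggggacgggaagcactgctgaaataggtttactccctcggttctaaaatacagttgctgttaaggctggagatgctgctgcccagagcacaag

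Abcg2 start 3, chr6:58640296-58640545, plus strand: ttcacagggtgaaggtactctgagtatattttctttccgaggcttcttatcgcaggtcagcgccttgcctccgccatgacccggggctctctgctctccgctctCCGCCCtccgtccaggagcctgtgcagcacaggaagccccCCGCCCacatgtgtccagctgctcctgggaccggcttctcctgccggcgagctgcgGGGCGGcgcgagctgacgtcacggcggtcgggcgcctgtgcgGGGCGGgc

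The windows differ in base composition. The first holds 51.2% G and C with 3 CpG pairs and no GC box, the second is equal parts G or C and A or T with 10 CpG pairs and 2 adjoining GC boxes, and the third 67.6% with 23 CpG pairs and 4 GC boxes. Of 32851 RefSeq windows of the same length, 32.7% hold a GC box, and the medians are 52.4% G and C and 6 CpG pairs. A match describes the letters and not a bound site.

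Abcb1a (chromosome 5, 8660077 to 8748575, plus strand) and Abcb1b (chromosome 5, 8798147 to 8866315, plus strand) are neighbouring copies whose reads can be confused. Their coding sequences in GENCODE M21 are 88.2% identical over 3816 aligned bases, and the longest run without a difference is 338 bases. Of the 50-base words of the Abcb1a transcript, 15.52% also occur in that of Abcb1b. The stretch where this run begins is shown, with 30 aligned bases before it and its first 70 bases, and capitals mark the bases that differ.

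Abcb1a, coding bases 1327 to 1426: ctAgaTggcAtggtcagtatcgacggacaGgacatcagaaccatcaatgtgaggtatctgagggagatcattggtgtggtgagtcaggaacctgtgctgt

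Abcb1b, coding bases 1336 to 1435: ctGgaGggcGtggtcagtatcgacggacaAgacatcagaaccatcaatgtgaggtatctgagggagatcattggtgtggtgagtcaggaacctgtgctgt

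The copies differ at 4 of these 100 bases, and all 4 lie before the run. Abcb4, the remaining gene of this cluster and a phosphatidylcholine transporter of bile, shares less, as its coding sequence is 77.3% identical to that of Abcb1a and 76.1% to that of Abcb1b.

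The promoter of Abcb1b is shown as well because its gene carried most of the P-glycoprotein signal. It holds 1 GC box, the CCAAT motif once on each strand and ACGTG once on the minus strand, all in capitals, and these motifs occur in 32.7%, 33.8% and 16.6% of the RefSeq windows. The TATA box, the GATA factor motif, the antioxidant response motif and the E-box had no match in this window.

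Abcb1b, chr5:8797897-8798146, plus strand: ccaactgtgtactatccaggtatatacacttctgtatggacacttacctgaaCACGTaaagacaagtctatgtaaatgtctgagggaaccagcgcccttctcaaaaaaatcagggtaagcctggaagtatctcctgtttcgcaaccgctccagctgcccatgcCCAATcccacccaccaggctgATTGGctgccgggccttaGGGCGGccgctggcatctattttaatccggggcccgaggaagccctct

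The libraries held 48307557 expected counts on genes in replicate 1 and 28945011 in replicate 2. Of these, 19528380 and 10411450 fell on nuclear protein coding genes, and 14420 and 8474 on the 9 transporters. Expected counts are estimated reads per gene, and levels are in TPM, transcript abundance per length scaled to the same total in each library. Nuclear protein coding genes held 30.03% of all TPM in replicate 1 and 26.55% in replicate 2. Detection required at least 1 TPM and at least 10 expected counts, which 45.5% of all nuclear protein coding genes met in both libraries. The marker counts that follow are to be read against that share. Of 8 stem cell markers (Kit, Ly6a, Cd34, Slamf1, Procr, Hlf, Meis1 and Mecom) 7 were detected in both libraries, with summed levels of 559 and 403 TPM, and all 10 erythroid markers were (2392 and 2155 TPM). The stem cell marker not detected in both was Slamf1, at 2.87 TPM in replicate 1 and 0.36 in replicate 2, picked out after its values were seen. Of 9 mature neutrophil markers, 1 was detected in both, and their sum was 5.11 TPM in replicate 1 and 343 in replicate 2, with 4 and 2 of them at 0 counts. Of the macrophage markers 1 of 10 was detected in both (sums 6.63 and 9.36 TPM), of the endothelial 5 of 10 (87.9 and 54.5), of the mast cell and basophil 3 of 7 (19.8 and 29.1), of the NK and T cell 3 of 8 (58.4 and 65.3) and of the megakaryocyte 5 of 8 (81.7 and 89.4). The part of these cells in the results was not tested, and in pooled RNA fewer expressing cells and less RNA per cell cannot be told apart.

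Of the 9 transporters, 8 were detected in both libraries, where 45.5% of all nuclear protein coding genes were. Abcc5 had the highest mean level at 36.8 ± 2.54 TPM (mean ± SD, n = 2 throughout), followed by Abcc1 at 25.8 ± 8.46, Abcg2 at 20.2 ± 6.61 and Abcb10 at 17.1 ± 5.81 TPM. Abcg1 stood at 12.7 ± 3.36, Abcc4 at 10.8 ± 2.58, Abcb1b at 7.56 ± 3.80, Abca1 at 3.02 ± 0.28 and Abcb1a at 1.21 ± 1.29 TPM. In this order 5 of the 8 neighbouring pairs overlapped between libraries. Those that did not were Abcc5 above Abcc1, Abcb1b above Abca1, and Abca1 above Abcb1a. The median of the 9 was 13.03 TPM in replicate 1 and 12.6 in replicate 2, beside 13.99 and 12.5 TPM over the 9769 nuclear coding genes detected in both.

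**Figure D1:**
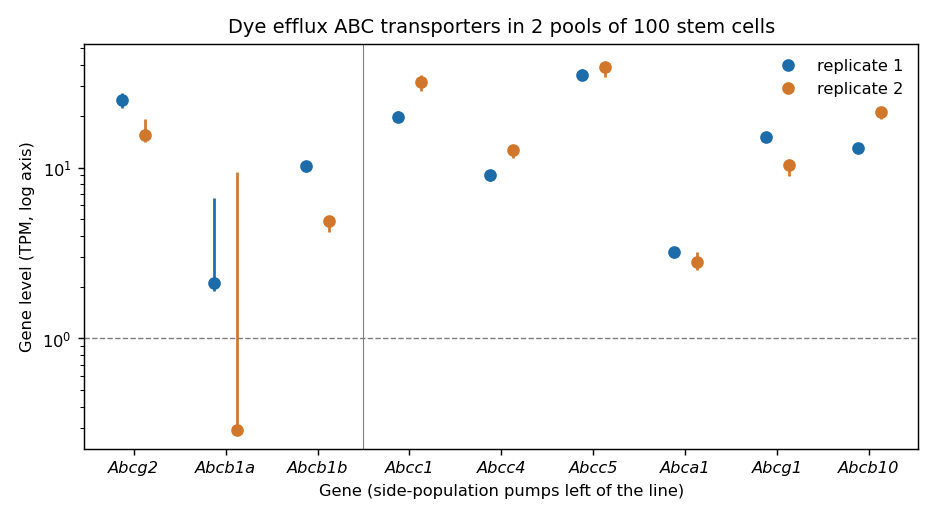
Level of each transporter in TPM (log axis) in replicate 1 and replicate 2, with points for the deposited estimate, vertical lines for the credibility interval in the deposited tables, and a dashed line at the detection threshold of 1 TPM. Abcc5 and Abcc1 are the highest on average, and Abcb1a is at 2.12 TPM in replicate 1 and at 0.29 in replicate 2 with an interval that reaches 9.44 TPM.

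Among the side-population pumps, Abcg2 was the most abundant by gene level, but not by longest coding transcript. On that transcript Abcb1b stood at 10.24 TPM in replicate 1 and 4.87 in replicate 2, and Abcg2 at 2.51 and 4.85. As a gene, Abcg2 stood at 24.9 TPM in replicate 1 (deposited credibility interval from 22.2 to 27.4) and 15.6 in replicate 2 (14.1 to 19.3), from expected counts of 629 and 417. The direction between the libraries depended on how length was treated. Its difference was 0.65 in log2(TPM + 1), replicate 1 minus replicate 2, but -0.31 with CPM scaled by TMM factors and -0.35 with DESeq2 size factors, which leave length out. The mean length the deposited tables assign to the gene was 910 bases in replicate 1 and 1608 bases in replicate 2.

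Most of the Abcg2 level in replicate 1 was not full-length message. Its longest coding transcript, of 2492 bases, carried 10.1% of the gene's TPM in replicate 1 and 31.2% in replicate 2, or 2.51 and 4.85 TPM. By reads it held 30.3% and 49.8%, since TPM divides by length and gives short transcripts more weight. The retained-intron transcripts together held 64.3% of the TPM in replicate 1 and 45.1% in replicate 2. Such a transcript is annotated for 5 of the 9 transporters, and over 4322 nuclear coding genes that have one the median share was 19.3% and 25.4%. In replicate 1 the remaining Abcg2 TPM was on a coding fragment of 348 bases at 6.38 TPM from 46.2 expected counts, and it was listed at 0 in replicate 2.

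Of the 3 starts shown above, reads of Abcg2 fell on transcripts from starts 2 and 3. Other reads fell on transcripts that begin elsewhere. The 348-base coding fragment begins between starts 1 and 2 and held 46.2 counts in replicate 1 and 0 in replicate 2. Start 2, that of the longest coding transcript, held 191 expected counts in replicate 1 and 208 in replicate 2. Start 3, where 4 annotated transcripts begin, held 170.0 and 161. These counts were similar although the total of replicate 1 was the larger. In replicate 1 all counts of start 3 lay on a retained-intron transcript of 701 bases, while in replicate 2 that transcript held 45.6 and a coding transcript of 2178 bases held 67.6. Start 1, the window without a GC box, is the start of a 464-base transcript that had no count in either library. Transcripts that begin inside the gene held 222 and 47.8 counts and were the largest group in replicate 1. This was also the group of Abcg2 transcripts in which the libraries lay furthest apart in counts. Assignment to a transcript is an estimate where exons are shared.

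**Figure D2:**
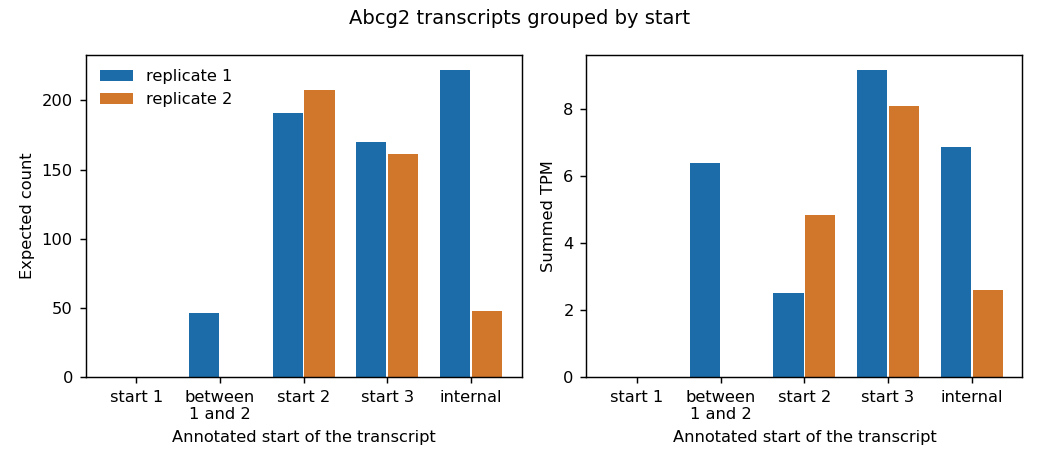
Expected counts (left) and summed TPM (right) of Abcg2 transcripts grouped by annotated start, in replicate 1 and replicate 2. Starts 2 and 3 hold 191 and 170.0 counts in replicate 1 and 208 and 161 in replicate 2, start 1 holds none, and the internal group holds 222 and 47.8. The transcript that begins between starts 1 and 2 holds 46.2 counts in replicate 1 and none in replicate 2.

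Abcb1b carried most of the P-glycoprotein signal. It stood at 10.2 TPM in replicate 1 (9.46 to 10.5) and 4.87 in replicate 2 (4.18 to 5.12), from expected counts of 1387 and 372, all on a single annotated transcript. Replicate 1 was 2.10-fold higher in TPM, and the difference of 0.94 in log2(TPM + 1) lay just inside the 2-fold limit. Abcb1a stood at 2.12 TPM in replicate 1 and 0.29 in replicate 2, from counts of 249 and 25.6, and so was the transporter not detected in both. In replicate 1, 52.7% of its TPM was on a retained-intron transcript, and its longest coding transcript stood at 1.00 TPM.

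The log2 ratio of Abcb1b to Abcb1a, with a pseudocount of 0.1 TPM, was 2.22 in replicate 1 and 3.67 in replicate 2 (2.95 ± 1.03). Abcb1b was thus the higher copy by deposited TPM in each library, and the mean ratio exceeded its SD. In replicate 2 this order is not secure, as the interval of Abcb1a (0.29 to 9.44 TPM) spanned that of Abcb1b (4.18 to 5.12). The ratio was 3.45 ± 0.31 when only the longest coding transcripts were used. With posterior mean TPM, which put Abcb1a at 3.64 and 3.43 TPM, it was 0.93 ± 0.71 (1.43 in replicate 1 and 0.43 in replicate 2). The credibility interval of Abcb1a reached 6.61 TPM in replicate 1 and 9.44 in replicate 2. Its annotated transcript of 129 bases had no counts and an upper bound of 4.38 and 8.93 TPM, while the longest coding transcript was bounded at 1.16 and 0.39 TPM. Abcb4 was more abundant than either, at 26.3 TPM in replicate 1 and 33.01 in replicate 2. The expected counts of Abcb1a, Abcb1b and Abcb4 were whole numbers in replicate 1 (249, 1387 and 3331). In replicate 2 they were not (25.62, 372.4 and 2362.98), which marks reads shared out among several genes.

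The mean level per gene was lower for the 3 pumps than for the 6 other transporters in each library, by little more than the spread. It was 12.4 TPM for the pumps and 15.9 for the others in replicate 1, and 6.90 and 19.6 in replicate 2. The log2 ratio per gene was -0.35 in replicate 1 and -1.50 in replicate 2 (-0.93 ± 0.81). The 3 pumps summed to 37.3 TPM in replicate 1 and 20.7 in replicate 2, and the 6 others to 95.1 and 117 TPM. The log2 ratio of these sums was -1.35 and -2.50 (-1.93 ± 0.81), to be read against -1, the value that 3 genes over 6 give at equal levels. With the longest coding transcript of each gene the sums were 13.8 and 10.01 TPM against 59.2 and 56.2 TPM, a log2 ratio of -2.30 ± 0.27, or -1.30 ± 0.27 per gene. With 2 libraries the smallest two-sided p that exact sign flipping allows is 0.5, so no p is given, and the genes of a group are not replicates.

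Abcc5 and Abcc1, exporters of organic anions, had the highest mean gene levels of the 9, while Abcc4 was lower, and in replicate 1 Abcg2 stood above Abcc1. Abcc1, on chromosome 16 (14361558 to 14475737, plus strand), stood at 19.8 TPM in replicate 1 and 31.8 in replicate 2, from counts of 3055 and 1933. Its longest coding transcript was almost level at 9.99 and 10.7 TPM. The gap at gene level lay largely in a coding fragment of 614 bases listed at 0 in replicate 1 and at 9.90 TPM in replicate 2 from 86.99 counts. Abcc4, on chromosome 14 (118482692 to 118706219, minus strand), stood at 8.99 and 12.6 TPM, with 98.5% and 86.2% of it on its longest coding transcript, and no retained-intron transcript is annotated for it.

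Abcc5, on chromosome 16 (20331303 to 20426394, minus strand), was nearly level as a gene and very different in its transcripts. The gene stood at 34.96 TPM in replicate 1 and 38.6 in replicate 2. Protein coding transcripts held 43.5% of this in replicate 1 and 9.64% in replicate 2, and retained-intron transcripts 17.6% and 78.2%. Its longest coding transcript, of 5811 bases, stood at 9.01 TPM (8.12 to 9.16) from 1644 counts in replicate 1, and at 1.97 TPM (0.91 to 2.57) from 203 counts in replicate 2. A 496-base transcript with no entry in GENCODE M21 held 38.9% of Abcc5 TPM in replicate 1 from 163 counts and 1.17% in replicate 2. Abcc5 thus ranked 1 of the 9 by gene TPM in both libraries, and 5 in replicate 1 and 8 in replicate 2 by longest coding transcript.

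**Figure D3:**
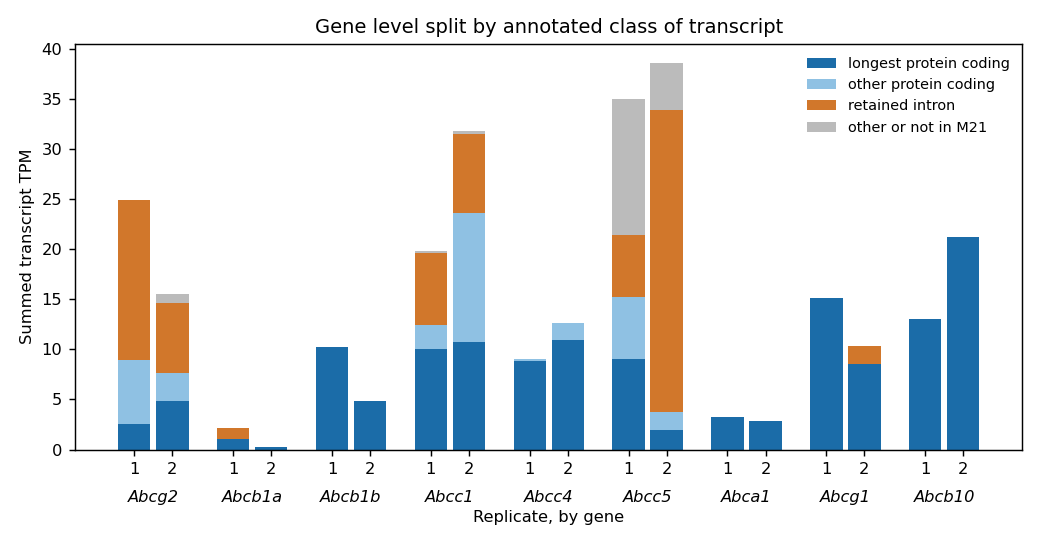
Summed TPM of the transcripts of each transporter in replicates 1 and 2, stacked by annotated class: longest protein coding, other protein coding, retained intron, and other classes or transcripts without an entry in GENCODE M21. Abcb1b, Abca1 and Abcb10 are wholly longest coding transcript, while that class holds 10.1% and 31.2% of Abcg2 and 25.8% and 5.11% of Abcc5. Abcb1b and Abcb10 have 1 listed transcript each, which fixes their share.

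The cholesterol transporters were read almost wholly as the longest coding transcript, with Abcg1 above Abca1. Abcg1, on chromosome 17 (31057675 to 31117988, plus strand), stood at 15.1 TPM in replicate 1 and 10.4 in replicate 2, with 100% and 82.6% on that transcript. Abca1, on chromosome 4 (53030787 to 53159895, minus strand), stood at 3.22 and 2.82 TPM, from counts of 1047 and 518. Its SD in TPM was the smallest of the 9, at a low mean of 3.02 TPM. In log2(TPM + 1) its difference was 0.144, and that of Abcc5 was -0.137. Of 19 genes of sterol handling and of the liver X receptors, which switch on Abca1 and Abcg1 when sterol is abundant, 18 (94.7%) were detected in both libraries, beside 45.5% of all nuclear coding genes. The highest were Srebf1, a lipid synthesis factor (69.6 ± 35.2 TPM), the lipoprotein receptor gene Scarb1 (56.8 ± 5.13), and the liver X receptor beta gene Nr1h2 (56.2 ± 12.6). The liver X receptor alpha gene Nr1h3 was the member not detected in both, at 1.01 TPM in replicate 1 and 0.19 in replicate 2, and was named after its values were seen. Of the 10 macrophage markers, C1qa, C1qb and C1qc had no counts in either library, while Cd68 was detected in both (5.47 and 5.07 TPM). Cd163 was detected in replicate 1 alone (1.16 TPM) and Vcam1 in replicate 2 alone (3.73 TPM). These macrophage markers were named after their values were seen.

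Abcb10, on chromosome 8 (123952459 to 123983122, minus strand), stood at 13.03 TPM in replicate 1 (12.1 to 13.3) and 21.2 in replicate 2 (19.3 to 21.2), from counts of 1749 and 1610 on its 1 annotated transcript. It ranked 5 and 3 of the 9 by gene TPM, and 2 and 1 by longest coding transcript, where its own level is the same by annotation. All 9 listed genes of mitochondrial iron and heme handling were detected in both libraries, beside 45.5% of all nuclear coding genes. Against a median difference of 0.12 in log2(TPM + 1) for coding genes detected in both, theirs was -0.27. The highest were the carrier gene Slc25a39 (39.99 ± 15.0 TPM), the mitoferrin gene Slc25a37, whose product Abcb10 binds (37.8 ± 5.03), the heme synthesis gene Alas1 (34.8 ± 14.9) and the glycine carrier gene Slc25a38 (28.8 ± 7.65), each with its higher level in replicate 2. Of all 9, 7 were higher in replicate 2, as was Abcb10, and 2 in replicate 1. Over the 9769 nuclear coding genes detected in both, 4062 were higher in replicate 2 and 5693 in replicate 1. The 2 listed genes higher in replicate 1 were the mitochondrial carrier gene Slc25a28 (24.3 and 7.96 TPM) and Clpx (17.8 and 11.1). Among the 7, Fech (-0.05 in log2(TPM + 1)) and Tmem14c (-0.10) differed little, and Alas2 differed most (-2.14, 1.99 and 12.2 TPM). These 5 were named after their values were seen. Alas2 is also 1 of the 10 erythroid markers, so the lists overlap. Of those 10 markers, 5 were higher in each library, and the median difference in log2(TPM + 1) was -0.004. Other lists leaned their own way. Higher in replicate 1 were 16 of the 19 sterol genes, 12 of 15 genes that control or anchor the pumps, and 3 of 8 glutathione genes. With 1 library on each side, whether genes of a list change together with a transporter was not tested.

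Of the 9 transporters, 1 was over 2-fold apart between the libraries in log2(TPM + 1), namely Abcb1a at 1.27, while 27.1% of genes detected in either library were. Split by direction, 1 of the 9 was over 2-fold higher in replicate 1, beside 13.1% of those genes, and 0 in replicate 2, beside 14%. By gene TPM 5 were higher in replicate 1 (the 3 pumps, Abca1 and Abcg1) and 4 in replicate 2 (Abcc1, Abcc4, Abcc5 and Abcb10). These directions are read against a median of 0.12 for coding genes detected in both, which was -0.04 after rescaling TPM to nuclear coding genes. Abca1, at 0.14, lay next to that median. The direction turned for Abcg2 (-0.74) and Abcc5 (1.75) when the longest coding transcript was used in place of the gene, and Abcc5 was then the transporter over 2-fold apart in place of Abcb1a. The lead transcript was the same in both libraries for 4 of the 7 transporters with several transcripts, against 51.5% of such coding genes, and it differed for Abcg2, Abcb1a and Abcc5. On the longest coding transcript the order of means ran from Abcb10 (17.1 TPM) through Abcg1 (11.8), Abcc1 (10.3), Abcc4 (9.88), Abcb1b (7.56), Abcc5 (5.49), Abcg2 (3.68) and Abca1 (3.02) to Abcb1a (0.65), and 7 of the 8 neighbouring pairs overlapped. This order depends in part on annotation. Abcb10 and Abcb1b have 1 listed transcript each and cannot lose level on this scale, while Abcg2 has 10, Abcc1 has 11 and Abcc5 has 12.

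Among the 53 measured genes of the whole ABC family, 29 (54.7%) were detected in both libraries, not far from the 45.5% of all nuclear coding genes, and 17 had no counts in either. The detected genes were 5 of 16 in subfamily A, 9 of 12 in B, 4 of 11 in C, 3 of 4 in D, all 4 in E and F, and 4 of 6 in G. Abca2, an endosomal lipid transporter, was highest at 133 TPM in replicate 1 and 51.5 in replicate 2. Others with a higher mean than every transporter described here were the ribosome recycling gene Abce1 (65.7 ± 2.88 TPM), Abcg4 (54.6 ± 1.25), a sterol transporter of the same subfamily as Abcg2, Abcf1 (52.2 ± 15.5), the peptide transporter gene Tap1 (46.8 ± 15.4) and Abca3 (45.5 ± 2.35), a phospholipid transporter known from lung. Tap2 (36.7 ± 9.18), Abcb4 (29.6 ± 4.77) and Abcf2 (23.6 ± 2.00) were also among the more abundant. Of the 9, Abcc5 ranked 7 in the family, Abcc1 ranked 10 and Abcg2 ranked 13.

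Abcg2 was nearest in level over the 2 libraries to Abcf3 (21.5 and 17.2 TPM, distance 0.24 in log2(TPM + 1)). Abcb1b was nearest to Abcc10 (0.46), Abcb1a to Abcc3 (0.87), Abcc1 to Abcb4 (0.39), Abcc4 to Abcb6 (0.27), Abcc5 to Tap2 (0.45), Abca1 to Abca4 (0.27), Abcg1 to Abcb8 (0.47) and Abcb10 to Abca7 (0.34). With 2 libraries such nearness describes level alone.

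**Figure D4:**
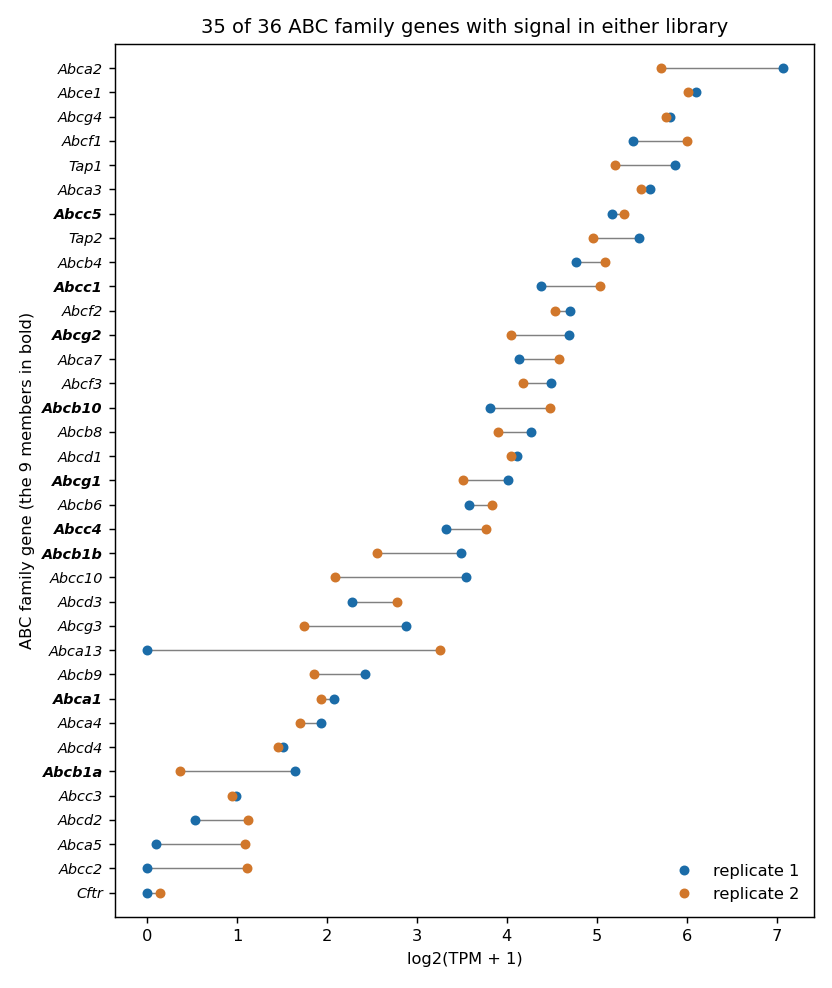
Levels in log2(TPM + 1) of 35 of the 36 ABC family genes with signal in either library, ordered by mean TPM, with points for replicates 1 and 2, lines joining them, and the 9 transporters described here in bold. Abcc5, Abcc1 and Abcg2 lie below Abca2, Abce1, Abcg4, Abcf1, Tap1 and Abca3, and Abcb1a lies near the bottom.

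Of 15 listed genes known to control or anchor these pumps, 11 (73.3%) were detected in both libraries, beside 45.5% of all nuclear coding genes. They were led by Trp53 (161.9 ± 43.3 TPM), which represses P-glycoprotein genes, the membrane linkers Msn (98.9 ± 23.4) and Ezr (43.7 ± 12.1), and Nfe2l2 (41.9 ± 5.00), the oxidative stress factor that induces Abcc genes. The hypoxia factor gene Epas1 and the drug receptor genes Nr1i2 and Nr1i3 had no counts in either library, and Ahr, the receptor for dioxin, was at 5.18 TPM in replicate 1 and 0.50 in replicate 2. These 4 were named after their values were seen. Of 8 genes that supply or conjugate glutathione, the cosubstrate of Abcc1, 7 (87.5%) were detected in both, led by Gstp1 (85.4 ± 8.05), Gclm (77.1 ± 11.7), Gstm1 (62.5 ± 14.4) and Gclc (38.7 ± 9.77 TPM).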

How the data were processed

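Expected counts were deposited by the authors per gene and transcript, with reads matching several places shared out. TPM and posterior mean TPM, with credibility intervals of unnamed level, were deposited beside them, as were FPKM values. The percent of a gene's TPM on each transcript was deposited in the transcript tables. Build mm10 and annotation GENCODE M4 are taken from the deposited text of the samples, and the columns carry RSEM's names, per the file headers. Aligner, versions, trimming and strand handling: not given in the sources used here. Reads of overlapping or antisense genes therefore cannot be told apart.

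Of 69691 table entries, the 43346 with mouse gene identifiers were used, and 42462 matched a symbol. Positions, biotypes and coding sequences came from GENCODE M21 (GRCm38), so transcript classes are those of M21. Promoter windows came from RefSeq (GRCm38.p6), in which 7 of the 9 genes matched, and Abcc1 and Abcg1 did not. Levels are TPM with mean and SD of 2 libraries, without p-values, as there is 1 group. Past 2-fold means over 1 unit of log2(TPM + 1), which understates low genes. Rounded counts were scaled with edgeR 4.0.16 and DESeq2 1.42.0 in R 4.3.3 and tested on simulated data. Python 3.11.15, pandas 2.3.3, numpy 2.4.6, Biopython 1.88 and matplotlib 3.10.9 did the rest. Named genes are the 9 members, the 10 other family genes of highest mean, each member's nearest family gene and the 4 highest of each list, of which 2 genes are not reported here. Members, lists and rules were chosen with earlier results of these data known, and use of the longest coding transcript was chosen after seeing the data. Intervals cover estimation error within a library only.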

Additional observations from a re-analysis of the deposited data

How the results depend on the processing

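The count of transporters over 2-fold apart between the libraries, 1 as reported, was 0 with posterior mean TPM and 2 with a pseudocount of 0.1, where Abcb1b joined Abcb1a. The log2 ratio of Abcb1b to Abcb1a, 2.95, was 0.93 with posterior mean TPM, and the cause was not tested. It ranged from 2.22 to 3.67 when either library was left out, and that of pumps to other transporters from -2.50 to -1.35. Leaving out a library gave 8 to 9 transporters, 30 to 33 ABC family genes and 18 to 19 sterol genes detected. All 9 transporters passed with posterior mean or rescaled TPM, which bring Abcb1a in replicate 2 to 3.43 and 1.09 TPM. Using the longest coding transcript moved the levels of Abcg2 to 3.68, Abcc1 to 10.3 and Abcc5 to 5.49 TPM, and posterior mean TPM that of Abcb1a to 3.54 TPM. No paired analysis was possible because there is a single group. Depth limits what can be said of Abcb1a, which rests on 25.6 counts in replicate 2.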
